A study of Mus musculus with 6 samples.

Results

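The 9 genes described here encode transcription factors of the excitatory neurons of the dorsal spinal cord: Barhl1, Barhl2, Lhx2 and Lhx9 of the dI1 class, and Pou4f1, Tlx3, Lmx1b, Phox2a and Drgx of the dI2, dI3 and dI5 classes. They were taken by symbol from the deposited count files, which list 55433 genes. Drgx appears there under its older symbol Prrxl1, matched through the RefSeq synonyms. All 9 were among the 17711 genes that passed the filter on low counts. RNA was measured in whole spinal cords of C57BL/6J mouse embryos at E13.5, in 3 libraries labelled NFIAcKO (genotype NFIA-ff with Nestin-cre) and 3 labelled control (genotype NFIA-ff). The control embryos thus carry the NFIA-ff genotype too, and only the embryos labelled NFIAcKO carry cre. Nestin-cre expresses the recombinase in neural progenitors and their descendants. No group had cre without NFIA-ff, so an effect of the transgene and one of the deletion cannot be told apart. The series was made to study the role of NFIA, a transcription factor of the nuclear factor I family, in spinal motor neurons.

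Dorsal interneurons arise in ordered progenitor domains below the roof plate, and each class is told by the homeodomain factors that its young neurons switch on. The dI1 neurons, born from progenitors that express Atoh1, send axons that cross or stay on their side and carry body-position signals toward the brain. The dI2, dI3 and dI5 neurons also use glutamate. In the mouse, Tlx3 favours the glutamatergic over the GABAergic choice, and Lmx1b and Drgx act in the dorsal horn neurons that receive touch, itch and pain input. Pou4f1, Tlx3 and Drgx are also made by sensory ganglion neurons beside the cord, and Lmx1b by the roof plate.

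Barhl1 and Barhl2 rose in the libraries labelled NFIAcKO, by 1.32-fold and 1.29-fold, and the other 7 factors did not pass the test. Calls were made with edgeR's quasi-likelihood F test at a Benjamini-Hochberg adjusted p under 0.05 over all tested genes. At that threshold 13.9% of all tested genes were called, 7.86% higher and 6.08% lower, against 2 of 9 factors higher and 0 of 9 lower. With upper quartile scaling the split over all genes was 1057 higher and 1434 lower, in place of 1392 and 1076, and again 2 factors were called higher. With the length and GC trend described below removed, 7.69% of genes were called, 3.82% higher and 3.87% lower, and 2 factors were higher. The median log2 fold change of the 4 dI1 factors was 0.26, that of the other 5 was 0.02, and that of all tested genes was -0.01. In RNA from whole cords, fewer cells of a type and less RNA per cell cannot be told apart.

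Nfia, the gene named by the knockout label, was higher in the libraries labelled NFIAcKO. Its counts were 5144, 5016 and 5636 in NFIAcKO replicates 1, 2 and 3 and 2641, 3110 and 3683 in control replicates 1, 2 and 3 (edgeR log2 fold change 0.75, SE 0.11, adjusted p = 0.0031). Reads from exons outside the deleted stretch enter that count, which is therefore no check of the deletion. Because it goes against the label, every direction here is that of the labels. Nfic, a relative, was also higher, by 1.29-fold (edgeR adjusted p = 0.0343; not called with the trend described next removed, 0.118, or when any library but control replicate 3 was dropped), and Nfib and Nfix had log2 fold changes of 0.06 and 0.02 (edgeR adjusted p = 0.708 and 0.915). Counts in genes were 47388945 to 48947073 in the libraries labelled NFIAcKO and 43393053 to 51465763 in those labelled control. In all 3 libraries labelled NFIAcKO the log2 count rose with transcript length relative to the mean library, by 0.0396 to 0.0931 per doubling, and in all 3 labelled control it fell, at -0.117 to -0.0188 per doubling. For the 9 factors, each log2 fold change is therefore also given with a trend in length and GC content removed. For other genes the adjusted p with the trend removed is given where that changes a call, and ratios and sums are as counted.

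**Figure D1:**
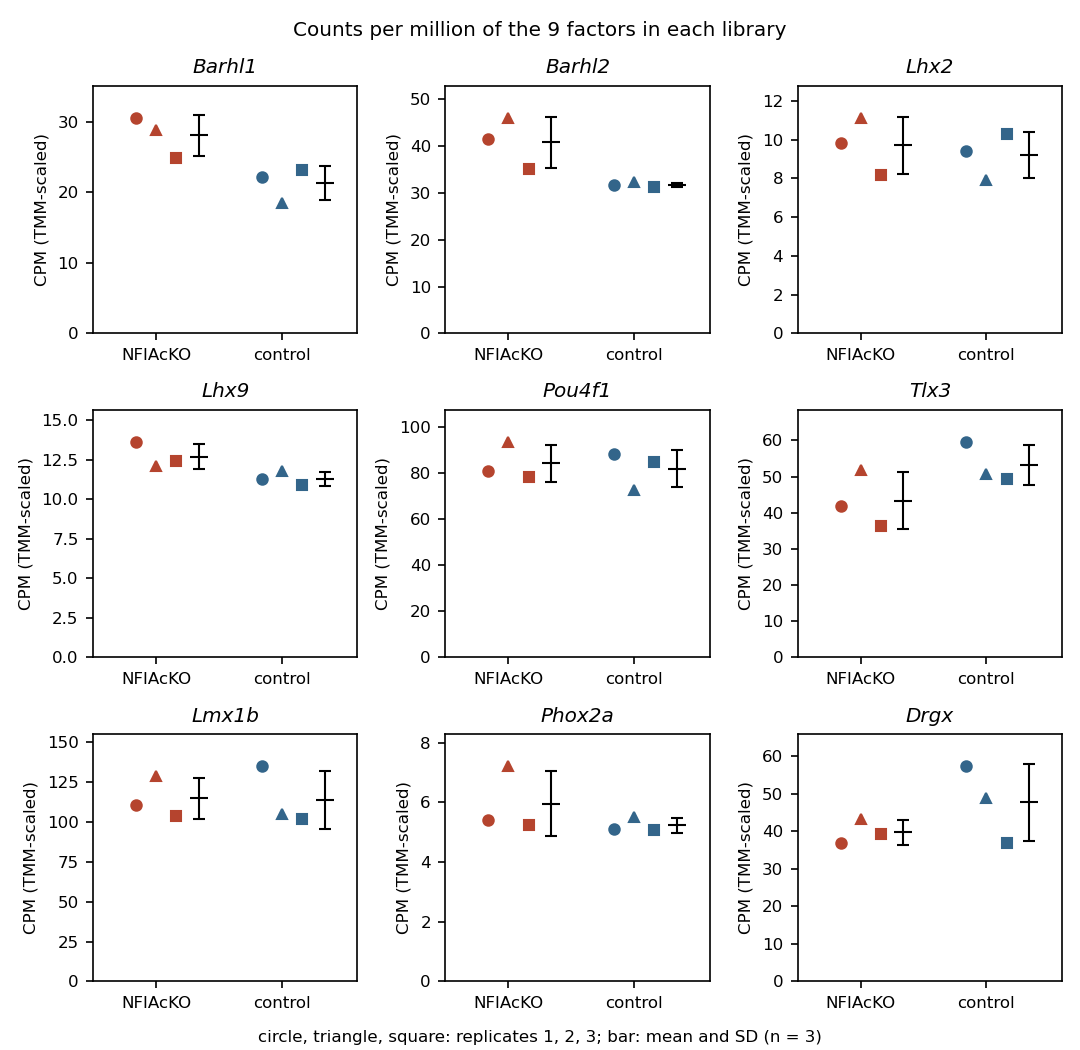
CPM (TMM-scaled, linear axes from 0) of each factor in the 3 libraries labelled NFIAcKO and the 3 labelled control; symbols are replicates, and the bar is the mean with its SD. Barhl1, Barhl2 and Lhx9 do not overlap between the groups, and the other 6 factors do.

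Barhl1 is a homeodomain factor that Atoh1 switches on in dI1 neurons. Its GRCm38 position is chromosome 2, 28907679 to 28916668, minus strand. Its level was 30.5, 28.9 and 24.9 CPM (counts scaled to the TMM library size) in NFIAcKO replicates 1 to 3, against 22.2, 18.5 and 23.1 CPM in control replicates 1 to 3. All 3 libraries labelled NFIAcKO stood above all 3 labelled control, and the gap was narrowest between the replicate 3 libraries. The means were 28.1 ± 2.91 and 21.3 ± 2.41 CPM in the NFIAcKO and control groups (SD, n = 3 each; log2 fold change 0.40, SE 0.11, edgeR adjusted p = 0.0311). After the length and GC trend was removed the log2 fold change was 0.33 (SE 0.09, edgeR adjusted p = 0.0425).

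Barhl2, its closest relative, lies on chromosome 5 from 106452523 to 106458166 on the minus strand and is needed in the mouse for the dI1 subtypes to send their axons along the right path. Its level was 41.4, 45.9 and 35.1 CPM in NFIAcKO replicates 1 to 3, against 31.7, 32.2 and 31.3 CPM in control replicates 1 to 3. The control libraries lay close together and every library labelled NFIAcKO was above them. The means were 40.8 ± 5.44 and 31.7 ± 0.449 CPM in the NFIAcKO and control groups (SD, n = 3 each; log2 fold change 0.36, SE 0.10, edgeR adjusted p = 0.0279). With the trend removed the difference was 0.47 (SE 0.08, edgeR adjusted p = 0.0145). The count of Barhl1 per count of Barhl2 was 0.692 ± 0.0561 in the NFIAcKO group and 0.672 ± 0.0849 in the control group, and the groups overlapped, with a log2 difference of 0.05.

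Both calls depended on which libraries were used. Among the 6 fits that each leave out 1 library, Barhl1 was called in 1, without control replicate 3 (edgeR adjusted p = 0.00348). It missed the threshold without NFIAcKO replicates 1, 2 and 3 (adjusted p = 0.155, 0.0966 and 0.0578) and without control replicates 1 and 2 (0.0869 and 0.102). Barhl2 was called in 3, and missed it without NFIAcKO replicates 1 and 2 (adjusted p = 0.113 and 0.128) and without control replicate 1 (0.0992). The log2 fold changes stayed at 0.30 to 0.47 for Barhl1 and at 0.27 to 0.45 for Barhl2 in these fits. Neither gene was called against a fold change of 1.2 (adjusted p = 0.423 and 0.488). The 2 libraries that are replicate 3 share a number in their file names, and the other 4 share another, with no meaning stated. Within those 4 libraries the log2 fold changes were 0.55 for Barhl1 and 0.45 for Barhl2 (edgeR adjusted p = 0.000127 and 0.00027). The remaining 2 hold 1 library of each group and so give no test.

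Barhl1 and Barhl2 moved together, so the bases before their starts are shown, to see whether sites of the factor named by the knockout stand there. The stretches are the 250 bases before the outermost RefSeq start in GRCm38.p6, at chr2:28916669-28916918 and chr5:106458167-106458416, both on the minus strand and written 5′ to 3′. Capitals mark matches, on either strand, to the short NFI motif TTGGC, the full NFI site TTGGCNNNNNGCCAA (which holds the short one), the E-box CAGCTG or the homeodomain core TAATTA.
Barhl1: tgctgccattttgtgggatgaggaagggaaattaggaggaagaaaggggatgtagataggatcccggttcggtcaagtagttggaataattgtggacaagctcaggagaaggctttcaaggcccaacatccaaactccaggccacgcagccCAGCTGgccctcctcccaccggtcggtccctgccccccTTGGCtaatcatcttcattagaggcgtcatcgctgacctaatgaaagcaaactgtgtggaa
Barhl2: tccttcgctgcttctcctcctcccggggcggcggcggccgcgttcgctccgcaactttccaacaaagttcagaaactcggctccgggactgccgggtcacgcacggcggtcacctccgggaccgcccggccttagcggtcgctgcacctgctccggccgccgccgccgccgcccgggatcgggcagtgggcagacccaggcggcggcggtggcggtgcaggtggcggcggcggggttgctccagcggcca
The Barhl1 stretch holds 1 E-box, whose first base lies 99 bases before the start, and 1 short NFI motif, 61 bases before it. The Barhl2 stretch, of 74.8% GC against 52.8% for Barhl1, holds no match to any of the 4 motifs. Over 32851 RefSeq promoters 41.5% hold the short NFI motif in these 250 bases, 0.0365% the full site, 13% the E-box and 4.84% the homeodomain core. Of the other 7 factors, Tlx3 has 2 short NFI motifs, Lhx2 and Lmx1b have 1 each, Pou4f1 has 1 E-box, and Lhx9, Phox2a and Drgx have no match. Exons of the GENCODE models of Lhx9, Tlx3 and Drgx reach into their own stretches, and an exon of another gene lies in that of Lmx1b, so these are not all bases outside transcripts. No factor has the full site or the homeodomain core there. A match is only a run of letters, and its absence in this window says nothing of the factor.

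Lhx2 and Lhx9, LIM homeodomain factors, are needed together in the mouse for dI1 commissural axons to make the receptor Robo3 and cross the midline. Lhx2 (chromosome 2, 38339281 to 38369733, plus strand) stood at 9.81, 11.1 and 8.19 CPM in NFIAcKO replicates 1 to 3, against 9.43, 7.92 and 10.3 CPM in control replicates 1 to 3. These groups overlap throughout (log2 fold change 0.08, 95% interval -0.23 to 0.38, edgeR adjusted p = 0.77). Lhx9 (chromosome 1, 138825186 to 138848577, minus strand) had 13.6, 12.1 and 12.4 CPM in NFIAcKO replicates 1 to 3, against 11.3, 11.8 and 10.9 CPM in control replicates 1 to 3. The groups of Lhx9 did not overlap, which held for 3 of the 9 factors, all higher, and for 33.4% of all tested genes, 17.3% higher and 16.1% lower, but the difference did not pass (0.17, 95% interval -0.07 to 0.40, edgeR adjusted p = 0.347). These intervals are not adjusted for the number of genes. Lhx2 turned to -0.01 and Lhx9 stood at 0.08 with the trend removed (edgeR adjusted p = 0.967 and 0.697). Dropping any 1 library called neither, and the adjusted p then ranged from 0.459 to 0.936 for Lhx2 and from 0.351 to 0.658 for Lhx9. The count of Barhl1 per count of Lhx2 was 2.92 ± 0.270 in the NFIAcKO group and 2.31 ± 0.0571 in the control group, without overlap, and that of Barhl2 per Lhx2 was 4.21 ± 0.0687 and 3.49 ± 0.522. Each has an exact permutation p of 0.1, the smallest that 3 against 3 libraries allow.

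Tlx3 and Drgx had the most negative log2 fold changes of the 9, and neither passed the test. Tlx3 (chromosome 11, 33200752 to 33203589, minus strand), a selector of the glutamatergic fate in dI3 and dI5 neurons, had 41.8, 51.9 and 36.3 CPM in NFIAcKO replicates 1 to 3, against 59.5, 50.7 and 49.4 CPM in control replicates 1 to 3. NFIAcKO replicate 2 stood within the range of the control libraries and the other 2 below it. The means were 43.3 ± 7.92 and 53.2 ± 5.45 CPM in the NFIAcKO and control groups (SD, n = 3 each; log2 fold change -0.30, 95% interval -0.55 to -0.04, edgeR adjusted p = 0.115). It passed the threshold without NFIAcKO replicate 2 (-0.44, edgeR adjusted p = 0.0411), with no filter on low counts (0.0228), and with the file-name number as a block (0.0446). With the trend removed it stood at -0.21 (adjusted p = 0.182).

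Drgx (listed as Prrxl1; chromosome 14, 32599407 to 32649246, plus strand), which depends on Tlx3 and Lmx1b in the mouse dorsal horn, had 36.8, 43.2 and 39.2 CPM in NFIAcKO replicates 1 to 3, against 57.3, 48.9 and 36.8 CPM in control replicates 1 to 3. Control replicates 1 and 2 were above all 3 libraries labelled NFIAcKO, and control replicate 3 was level with the lowest of them. The means were 39.7 ± 3.25 and 47.7 ± 10.3 CPM in the NFIAcKO and control groups (SD, n = 3 each; log2 fold change -0.26, 95% interval -0.55 to 0.03, edgeR adjusted p = 0.21). The value moved with both of the outer control libraries. Without control replicate 3 the log2 fold change was -0.42 (edgeR adjusted p = 0.00123), and within the 4 libraries that share a file-name number it was -0.41 (0.000698). Without control replicate 1 it was -0.12 (adjusted p = 0.631). With the trend removed it was -0.26 (0.3).

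**Figure D2:**
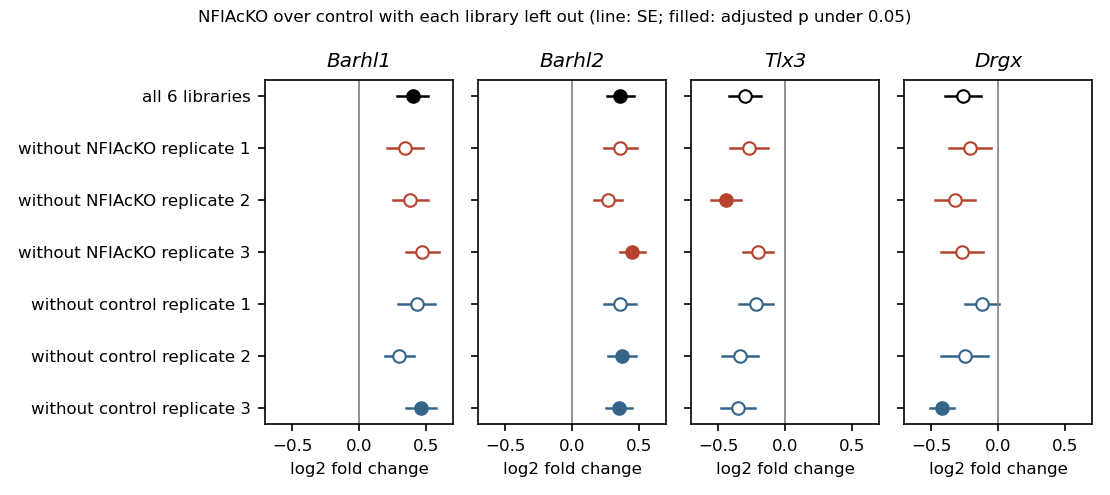
Log2 fold change of NFIAcKO over control for Barhl1, Barhl2, Tlx3 and Drgx in the fit of all 6 libraries and with each library left out; the line is the SE, and filled points have an adjusted p under 0.05. Barhl1 and Barhl2 keep to the right of 0 and Tlx3 and Drgx to the left in every fit, while the calls come and go.

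Lmx1b, Pou4f1 and Phox2a did not pass the test under any alternative run. Lmx1b (chromosome 2, 33560965 to 33640511, minus strand), a LIM homeodomain factor of dI5 neurons, had 111, 129 and 104 CPM in NFIAcKO replicates 1 to 3, against 135, 105 and 102 CPM in control replicates 1 to 3. Its groups overlapped (log2 fold change 0.02, 95% interval -0.22 to 0.25, edgeR adjusted p = 0.946), and its sign turned with upper quartile scaling (-0.02) and with the trend removed (-0.09). Pou4f1 (chromosome 14, 104461676 to 104467999, minus strand), a POU homeodomain factor of dorsal excitatory classes, had 81.2, 93.5 and 78.2 CPM in NFIAcKO replicates 1 to 3, against 88.5, 72.9 and 84.9 CPM in control replicates 1 to 3. These too overlapped (0.04, 95% interval -0.16 to 0.24, edgeR adjusted p = 0.826; 0.02 with the trend removed). Phox2a (chromosome 7, 101818313 to 101822726, plus strand) marks spinal neurons that project to the brain and shares 95 bp of exons with Inppl1 on the other strand, so its count is uncertain. It had 5.41, 7.21 and 5.25 CPM in NFIAcKO replicates 1 to 3, against 5.12, 5.51 and 5.06 CPM in control replicates 1 to 3. NFIAcKO replicate 2 was highest and the other 5 libraries lay together (0.19, 95% interval -0.14 to 0.52, edgeR adjusted p = 0.458; 0.24 with the trend removed). For all 3 genes the intervals leave room for changes in either direction.

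**Figure D3:**
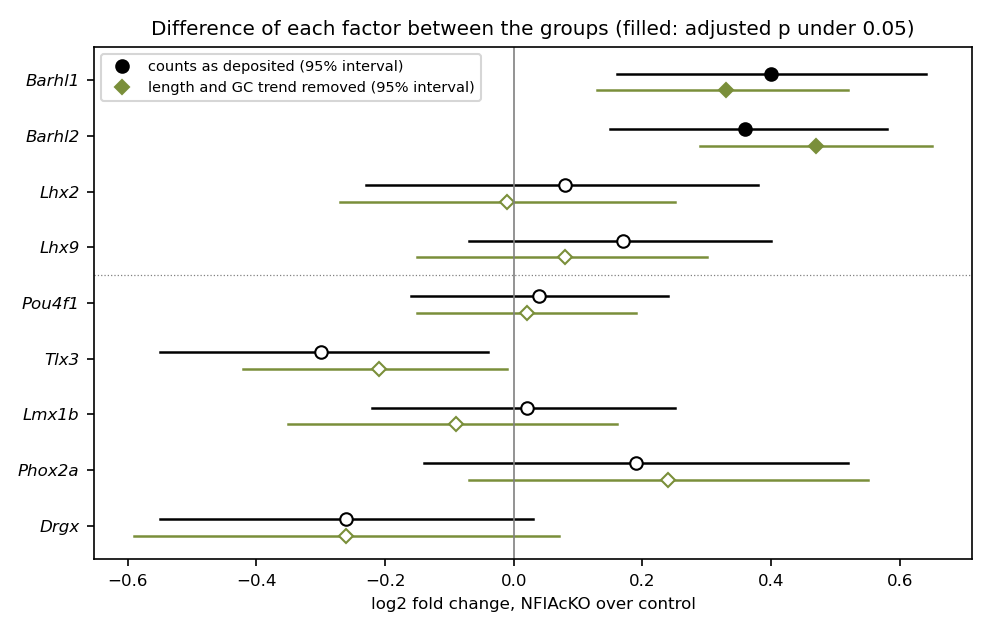
Log2 fold change of NFIAcKO over control with its 95% interval for the 9 factors, as counted (black) and with the length and GC trend removed (green); filled symbols have an adjusted p under 0.05, and the dotted line parts dI1 from the other classes. Barhl1 and Barhl2 are filled in both fits, and Lhx2 and Lmx1b change sign between them.

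The balance between the factors was also taken within each library, where it does not depend on library size. Of the 36 ratios of 2 factors, 15 did not overlap between the groups, which is 41.7%, against 28.5% of all pairs of tested genes with a count in every library. The 36 share their members and are not independent. Of the 15, 10 lie among the 20 ratios of a dI1 factor to one of the other classes, 2 among the 6 within dI1 and 3 among the 10 within the other classes. Every one of the 15 holds Barhl1, Barhl2 or Tlx3. All ratios of Lhx2 or Lhx9 to Pou4f1, Lmx1b, Phox2a or Drgx overlapped. The split by class therefore restates the values of Barhl1, Barhl2 and Tlx3 and is no separate result. The widest was Barhl1 per Tlx3, at 0.731, 0.556 and 0.684 in NFIAcKO replicates 1 to 3, against 0.373, 0.365 and 0.468 in control replicates 1 to 3, a log2 difference of 0.71. Barhl2 per Tlx3 stood at 0.991, 0.884 and 0.966 in NFIAcKO replicates 1 to 3, against 0.532, 0.634 and 0.633 in control replicates 1 to 3, a log2 difference of 0.66. Tlx3 per Drgx overlapped, with means of 1.09 ± 0.143 in the NFIAcKO group and 1.14 ± 0.176 in the control group (SD, n = 3 each). Summed over the 4 dI1 factors, the level was 95.3, 98.0 and 80.5 CPM in NFIAcKO replicates 1 to 3, against 74.5, 70.4 and 75.5 CPM in control replicates 1 to 3, without overlap. Barhl1 and Barhl2 make up most of this sum in every library, so it is no result apart from theirs. The sum of the 5 factors of the other classes overlapped, at 276, 325 and 263 CPM in NFIAcKO replicates 1 to 3, against 345, 283 and 278 CPM in control replicates 1 to 3. Each of the 15 ratios has an exact two-sided permutation p of 0.1, the smallest this design allows, and 0.24 when adjusted over the 36 ratios.

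Levels between the genes were compared per kilobase of annotated exons (RPKM). Tlx3 was highest, at 28.3 ± 5.17 RPKM in the NFIAcKO group and 34.7 ± 3.56 RPKM in the control group (SD, n = 3 each). Lmx1b, Pou4f1, Barhl2, Drgx, Barhl1, Phox2a and Lhx2 followed, with means over all 6 libraries of 23.5, 17.8, 15.7, 10.5, 6.32, 2.75 and 2.15 RPKM. Lhx9 was lowest, at 1.34 ± 0.0863 RPKM in the NFIAcKO group and 1.19 ± 0.0470 RPKM in the control group. Its place depends on the length used, the merged exons of all transcripts, which was 9494 bp for Lhx9, 4393 bp for Lhx2 and 2035 bp for Phox2a. Not divided by length, Lhx9 had means of 12.7 and 11.3 CPM in the NFIAcKO and control groups. Those were above Lhx2 (9.70 and 9.21 CPM) and Phox2a (5.96 and 5.23 CPM). Pou4f1 and Barhl2 overlapped, and so did Barhl2 and Drgx, each pair keeping its order in 5 of 6 libraries. The ranges of Tlx3 and Lmx1b and of Phox2a and Lhx2 overlapped as well, although the order held in all 6 libraries. The other neighbours in this order did not overlap.

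**Figure D4:**
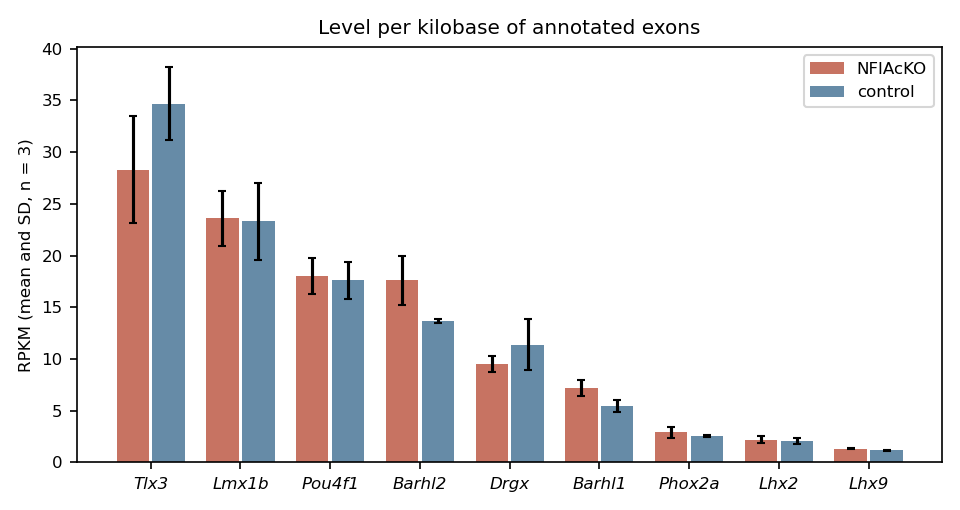
Mean level of the 9 factors in RPKM (bars from 0, with the SD of 3 libraries) in the NFIAcKO and control groups, from the highest to the lowest over all 6 libraries. Tlx3 leads in both groups, and Phox2a, Lhx2 and Lhx9 stay under 3 RPKM.

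Related genes of the dorsal cord were taken from lists chosen for this description. Over all tested genes 13.9% were called, 7.86% higher and 6.08% lower. Of 11 dorsal progenitor factors none was called by edgeR, and 1, Msx1, had an unadjusted p under 0.05, as did 29.8% of all tested genes. The median log2 fold change was 0.09. Atoh1, the inducer of dI1 fate, was at 0.0413 to 0.475 CPM in the libraries labelled NFIAcKO and 0.0911 to 0.774 CPM in those labelled control, and 2 libraries, NFIAcKO replicates 1 and 3, had fewer than the 3 counts that make 0.057 to 0.0683 CPM. Neurog1, a factor of dI2 progenitors, had a log2 fold change of 0.54 (SE 0.27, edgeR adjusted p = 0.215), Pax7 had 0.52 (0.297) and Msx1 -0.41 (0.134). Other fits called Neurog1, without control replicate 3 (0.89, edgeR adjusted p = 0.000762) and with no filter on low counts (0.00483). Within the 4 libraries that share a file-name number Neurog1 stood at 1.04 (edgeR adjusted p = 9.71e-07). Of 12 tested factors of the dorsal excitatory neurons outside the 9, 1 rose and 11 did not pass (median 0.14). The riser was Prdm8, a repressor that acts with Bhlhe22, at 27.4, 33.0 and 29.1 CPM in NFIAcKO replicates 1 to 3 and 22.2, 19.2 and 23.4 CPM in control replicates 1 to 3 (0.46, SE 0.11, edgeR adjusted p = 0.0145). It shares 1411 bp of exons with an antisense gene, and its call was lost without NFIAcKO replicates 2 and 3 (0.0685 and 0.0608) and control replicate 1 (0.0577). Pou4f2, a relative of Pou4f1, stood at 0.34 (SE 0.13, edgeR adjusted p = 0.0994), and Bcl11a at 0.25 (0.0927), or 0.03 with the trend removed.

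As counted, 0 of 9 tested genes of dorsal excitatory function and 3 of 12 of the inhibitory neurons were called. Over all tested genes 13.9% were called, 7.86% higher and 6.08% lower. No test set these counts against that share or against each other. Among 9 tested transmitter, peptide and axon genes edgeR called none, and the 4 with an unadjusted p under 0.05, a mark passed by 29.8% of all tested genes, were Dcc, Unc5c, Tac1 and Cck (median -0.11). Unc5c turned from 0.22 as counted to -0.07 with the trend removed. Dcc, a netrin receptor of commissural axons, had a log2 fold change of 0.35 (edgeR adjusted p = 0.0532), which passed with the replicate block (0.36, 0.0188) and stood at 0.14 with the trend removed (0.393). It also passed with the file-name number as a block (edgeR adjusted p = 0.0111), with no filter on low counts (0.00166), and in the DESeq2 Wald test (adjusted p = 0.0155). Without control replicate 3 Dcc passed too (edgeR adjusted p = 0.000268). The peptide genes Cck and Tac1 had -0.81 (edgeR adjusted p = 0.0568) and -0.34 (0.13), and Tac1 stood at -0.19 with the trend removed. Cck passed with the file-name number as a block (edgeR adjusted p = 0.0468) and with no filter on low counts (0.0222). A filter of at least 1 CPM in 3 libraries (0.0486) and leaving out control replicate 3 (0.00749) called it too. In the DESeq2 Wald test Cck passed (adjusted p = 0.0447), but with the trend removed it did not (-0.62, edgeR adjusted p = 0.155). Tac1 passed with no filter on low counts (edgeR adjusted p = 0.0154) and without control replicate 3 (0.00252). Slc17a6, the vesicular glutamate transporter of these neurons, had 142, 143 and 139 CPM in NFIAcKO replicates 1 to 3, against 162, 164 and 133 CPM in control replicates 1 to 3 (edgeR adjusted p = 0.422). Robo3, the receptor that lets commissural axons cross, had 96.3, 102 and 101 CPM in NFIAcKO replicates 1 to 3, against 101, 114 and 120 CPM in control replicates 1 to 3. It did not pass as counted (-0.16, edgeR adjusted p = 0.209) and fell with the trend removed (-0.35, 0.0249). Slc17a6, Robo3 and Unc5c were named after their values were seen. Among 12 genes listed for dorsal inhibitory neurons, 3 rose and 9 did not pass (median 0.19). In RNA from whole cords, dorsal and ventral sources of these genes cannot be told apart. Pax2 rose by 1.34-fold (edgeR adjusted p = 0.0108), Lhx1 by 1.34-fold (0.027) and Slc6a5, a glycine transporter, by 0.27 on the log2 scale (0.0322). Pax2 was lost without NFIAcKO replicates 1 and 2 (0.0507 and 0.0551), and stood at 0.26 with the trend removed (0.0355). Lhx1 was lost with the replicate block (0.0538) and in every fit that drops a library other than control replicate 3, and Slc6a5 in the same 5 fits, with upper quartile scaling (0.0571) and with the trend removed (0.153).

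Markers of other tissues that make these factors were examined in the same libraries. Of 12 genes of sensory ganglion neurons 11 were tested, 1 (Scn9a, edgeR adjusted p = 0.0113, lost with the trend removed, 0.054, and without NFIAcKO replicates 1 and 3 and control replicate 1, 0.0576, 0.0652 and 0.075) rose and none fell, with a median of -0.72, and the summed level was 170 to 176 CPM in the libraries labelled NFIAcKO and 162 to 200 CPM in those labelled control. P2rx3, an ATP-gated channel of these neurons, had counts of 147, 124 and 71 in NFIAcKO replicates 1 to 3, against 107, 401 and 317 in control replicates 1 to 3. Scn10a was at 0 in NFIAcKO replicate 2 and Trpv1 at 0 in control replicate 3. Tlx3 and Drgx were highest in control replicate 1, where the sensory ganglion genes summed to 162 CPM. In control replicates 2 and 3 these genes summed to 200 and 199 CPM. A link between these levels was not tested. Of 6 roof plate genes, Wnt3a fell (-1.50, edgeR adjusted p = 0.0204, lost in 4 of the 6 fits without a library) and 5 did not pass. Of these, Wnt1 passed with the replicate block (-1.09, edgeR adjusted p = 0.0475), with no filter on low counts (0.0128) and without NFIAcKO replicate 2 (0.0235). It also passed with Xist, split at a log2 CPM of 1, as a covariate (0.0392), but not with the trend removed (0.157). The sum of the roof plate genes was at most 12.2 CPM in the libraries labelled NFIAcKO and 12.5 to 14.1 CPM in those labelled control. Of 7 Schwann and satellite glia genes 6 were tested and 2 fell, among them Fabp7, which radial glia also express. Fabp7 was lost without NFIAcKO replicate 1 (0.0517) and with the trend removed (0.0716), and with the trend removed no gene of the list was called. The sum of the list was 671 to 731 CPM and 864 to 1180 CPM in the NFIAcKO and control groups. Of 7 hindbrain monoaminergic and visceral genes 3 were tested and none was called, and the sum was at most 3.51 CPM and at most 4.18 CPM in the NFIAcKO and control groups. Limb mesenchyme gave 0 calls among 4 tested of 7 (29.3 to 32.0 and 27.4 to 35.9 CPM in the NFIAcKO and control groups), and meninges 0 among 7, of which Foxc1, Foxc2 and Dcn had an unadjusted p under 0.05. No gene of the hindbrain or limb lists had an unadjusted p under 0.05. P2rx3 of the sensory list, Wnt1 of the roof plate and Cdh19 of the glia had log2 fold changes of -1.23, -0.95 and -0.99 and did not pass (edgeR adjusted p = 0.142, 0.112 and 0.131). The part of these cells in the values of the 9 factors was not tested.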

How the data were processed

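The authors deposited raw counts per gene symbol, 1 file per library, with 5 summary lines (16.9 to 19.4% of a file) left out here. STAR 2.6.1a, HTSeq, DESeq2 and mm10 are named in the submitters' processing notes, without roles. The library kit keeps strand, per the labels' protocols. Annotation release and counting strand: not given in the sources used here. Counts of overlapping genes are therefore uncertain.

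Counts were compared in edgeR 4.0.16 (R 4.3.3; TMM, filterByExpr, robust quasi-likelihood F test). The SE was taken from the fold change and F. DESeq2 1.42.0 and limma 3.58.1 (voom) were alternatives. Gene models, lengths and GC came from GENCODE M21 (GRCm38), with lengths for 98.9% of tested genes. The length and GC trend was a natural spline (5 degrees of freedom) fitted to each library and used as an offset. The scripts were tested on simulated counts. Libraries of a group differed by more than sampling noise (chi-square per degree of freedom 11.5 to 50.5).

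Members and lists were chosen with earlier results of these data known. Named genes were the 9 factors, the NFI genes, up to 3 genes of smallest p per list, and those said to be chosen later; a few genes that this rule or the lists hold are not reported here. Deviations from the group means correlated between libraries of the same replicate number (0.353, 0.397 and 0.193 for numbers 1, 2 and 3), so the numbers were taken as pairs, from the data and not from the labels, in a fit with that number as a replicate block. Precision is limited by 3 libraries a group; counting limits cover counting error only.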

Additional observations from a re-analysis of the deposited data

How the results depend on the processing

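The count of all genes called was 2468, against 1362 once the trend with length and GC was removed, 1494 with the replicate block added to that, 41 against a fold change of 1.2, and 5244 within the 4 libraries that share a file-name number, an alternative added after seeing the data. Leaving out 1 library gave 451 to 5169. The count of factors called higher was 2, and 0 against a fold change of 1.2 and 0 to 2 without a library. The count called lower was 0. It was 1 with no low-count filter and with the file-name number as a block (Tlx3 in both), 1 within the 4 libraries (Drgx), and 0 to 1 without a library. With the replicate block 2 factors were called higher and 0 lower, Barhl1 at 0.40 (edgeR adjusted p = 0.0336) and Barhl2 at 0.36 (0.0244), and among the genes named above Lhx1 lost its call (0.0538) and Dcc (0.0188) and Wnt1 (0.0475) gained one. Signs that turned were all of factors never called. Pou4f1 stood at -0.0012 and Lmx1b at -0.02 with upper quartile scaling. Lhx2 stood at -0.01 and Lmx1b at -0.09 with the trend removed, and at -0.01 and -0.08 with the replicate block as well. Without a library, Lhx2 ranged from -0.03 to 0.17, Pou4f1 from -0.05 to 0.09 and Lmx1b from -0.07 to 0.15. The causes of these changes were not tested, except that a fold threshold calls fewer genes by construction. Among counts called per list and direction, 425 stayed within 1.5 times and 95 did not. A count of 0 that stayed at 0 is among the 425, and most counts were 0 to begin with. The 425 therefore say little of how stable the calls were. Depth was no limit for the 9 factors, whose lowest count was 225.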

Other observations

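For each factor, the tested genes with a mean of at least 1 CPM (predicted genes left out) whose log2 CPM followed it most closely over the 6 libraries were sought, with Pearson's r as the measure of likeness. Barhl1 was most like Lmtk3 and Iffo2 (both 0.996), Barhl2 like Zfp84 (0.987) and Sbno1 (0.984), Lhx2 like Sox1 and Prcc (both 0.995), and Lhx9 like Cc2d1a (0.985) and Porcn (0.982). Pou4f1 was most like Cfl1 (0.992) and Mafk (0.988), Tlx3 like Tmem143 (0.990) and Borcs5 (0.980), Lmx1b like Rasgef1b (0.992) and Junb (0.984), Phox2a like Zc2hc1c (0.989) and Msantd3 (0.986), and Drgx like Taf5 (0.996). These values were picked as the highest among many genes, over only 6 libraries. Of 13165 genes, 1276 had a likeness over 0.9 to Barhl1. For the other factors that count ran from 32 (Lmx1b) to 201 (Barhl2). None of the genes named here as most alike stands in a list used above. The libraries share their group difference and the trend with length, so these values are a description only.

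Among the factors themselves the most alike were Lhx2 and Pou4f1 (0.88), Barhl1 and Barhl2 (0.84), Barhl2 and Phox2a (0.81), and Lmx1b with Pou4f1 (0.74), and then Tlx3 with Drgx (0.73). The most opposed were Lhx9 and Tlx3 (-0.62) and Barhl1 and Drgx (-0.56). Lhx2 and Lhx9, which mark the same class, stood at -0.06.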
